A study of Rattus norvegicus with 18 samples.

Results

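The 32 genes described here encode proteins of the cytosolic ribosome, and their messenger RNA was followed in whole lung of rats that breathed diluted cigarette smoke through the nose alone. They are all the genes of the array whose symbol is Rpl or Rps with a number, or Rplp0, Rplp1, Rplp2 or Rpsa, and that had a value in at least 12 of the 18 samples. By that rule 32 of the 4650 genes with a symbol were taken, and all 32 had a value in every sample. By symbol, 14 were counted for the large subunit, 15 for the small subunit and 3 for the stalk. The stalk is part of the large subunit, and its genes are left out of the large-subunit counts given here. The 6 kinase genes on the array with a symbol in Rps6ka or Rps6kb encode no part of a ribosome and were left out. The rat gene table of assembly GRCr8 lists 77 ribosomal protein symbols, so the genes described are a part of that set.

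A ribosome of the cytosol is built from ribosomal RNA and a large set of proteins, most of them present in a single copy, and in growing cells their transcripts are among the most abundant messengers. The transcripts start with a C followed by an unbroken run of pyrimidines, the terminal oligopyrimidine (TOP) motif, through which mTOR signalling controls how well they are translated. In a tissue such as lung the amount of these messengers is known to differ between cell types and with growth and activation, and free ribosomal proteins such as Rpl11 bind Mdm2, the ligase that marks p53 for degradation.

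The high-dose smoke held 600 µg and the low-dose smoke 300 µg of total particulate matter (TPM) per litre, and control rats breathed conditioned fresh air. Exposure was for 1 h 2 times a day on 5 days a week over 2, 7 or 13 weeks, and lungs were taken 2, 6 or 20 h after the last exposure, so that either dose has 9 combinations of duration and interval. A sample is the log2 ratio of pooled lung RNA of 4 smoke-exposed rats, labelled with Cy5, over that of 4 air-exposed rats, labelled with Cy3, and a value above 0 means more of the messenger in smoke than in air. No condition was repeated. The high-dose and low-dose sample of a combination shared 1 control pool, so the 18 samples held 9 control pools, and no swap of the dyes is named. The labels name no strain, sex or age of the rats.

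Per sample, 3919 to 4583 genes were measured, and sample medians over all probes lay between -0.01 and 0.01, so every value is relative to the middle of the array. The number of arrays limits the precision. The spread behind each p-value is the spread between combinations of weeks and hours, which holds error between pools of animals and change over time together. The table holds ratios and no levels, so the tissue could not be checked by the level of lung markers, and no gene's level can be set against another's. In whole lung, a change in the number of cells of a type and a change in RNA per cell cannot be told apart. Every one of the 32 genes has copies by name in the rat gene table, with 1 for Rpl41 and 36 for Rps2, so a probe may also have bound RNA of a copy.

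For 29 of the 32 genes a promoter from RefSeq (assembly GRCr8) was at hand. The 40 bases around the annotated start are shown for 9 of them, 20 on either side of it and 5′ to 3′ on the gene's own strand. They are the 5 genes that rose at the low dose, among them the 4 that rose at both doses, then Rps3, Rps26, Rps7 and Rps27. Rps3 and Rps26 rose at the high dose and carry CTTTC. Rps7 and Rps27 carry it too and passed at neither dose with all 9 samples. Capitals mark each CTTTC, a short pyrimidine run of the kind that opens a TOP messenger. Other pyrimidine runs, such as those of Rps2, Rplp0 and Rpl14, are not marked.
Rps2, chr10:14251828-14251867, plus strand: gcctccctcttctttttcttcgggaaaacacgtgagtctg
Rpsa, chr8:128728859-128728898, plus strand: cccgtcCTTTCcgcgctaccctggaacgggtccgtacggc
Rplp0, chr12:46718371-46718410, minus strand: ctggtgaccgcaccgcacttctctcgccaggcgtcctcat
Rpl41, chr7:1563478-1563517, minus strand: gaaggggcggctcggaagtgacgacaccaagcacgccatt
Rpl14, chr8:129163600-129163639, plus strand: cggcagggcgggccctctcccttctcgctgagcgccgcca
Rps3, chr1:163195757-163195796, minus strand: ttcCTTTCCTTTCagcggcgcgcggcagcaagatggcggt
Rps26, chr7:1643385-1643424, minus strand: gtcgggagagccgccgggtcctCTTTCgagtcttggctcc
Rps27, chr2:177964587-177964626, minus strand: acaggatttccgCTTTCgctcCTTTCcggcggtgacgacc
Rps7, chr6:50999426-50999465, minus strand: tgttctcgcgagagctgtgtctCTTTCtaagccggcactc

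CTTTC on the gene's strand within these 40 bases was present in 13 of the 29 promoters (44.8%), against 1665 of all 33469 rat promoters in the table (4.97%) and 178 of 3952 promoters of genes on the array (4.5%). With both strands searched the shares were 44.8%, 9.87% of all promoters and 8.3% of those of array genes. The longer CCTTTC, which contains CTTTC, was on the gene's strand of 8 of 29 (27.6%), against 1.46% of all promoters and 1.39% of those of array genes. In the whole window of 300 bases and on both strands, CCGGAAG, a core bound by ETS factors, was present in 9 of 29 (31.0%), against 8.75% of all promoters and 12.2% of those of array genes. TATAAA, the TATA box, was in 3 of 29 (10.3%), below the share of all promoters (14.2%) and above that of array genes (9.34%). AAGATGG, a YY1 core, was in 3 of 29 (10.3%), against 7.01% of all promoters and 7.19% of those of array genes. Of the 10 genes that rose at the high dose 3 hold CTTTC, and of the 19 others 10 do; the difference was not tested. A match describes letters and is not a bound site, and it can lie away from the start, as in Rpsa. A TOP run is missed where it lacks CTTTC or where the annotated start is not the true one. Rps2, Rplp0 and Rpl14 hold pyrimidine runs without CTTTC, so these counts are not counts of genes with a TOP run.

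The first question is what smoke at the high dose did to these messengers. Of the 32 genes, 10 rose and 0 fell (limma, Benjamini-Hochberg adjusted p under 0.05 over all 4016 genes tested). Of all genes tested, 9.56% rose and 7.64% fell, 17.2% in all. At an unadjusted p under 0.05 the genes numbered 18 of 32, against 31.0% of all genes in either direction. The mean lay above air for 30 of 32 genes, against 51.2% of all genes, and the median log2 ratio was 0.13, against 0.003 over all genes. The shifts were small: the highest, that of Rps2, was 1.27-fold. The count changed when combinations were left out. It was 6 of 32 without 7 weeks and 20 h, without 13 weeks and 2 h, or without 13 weeks and 20 h. Without the 7-week samples 1 of 32, Rps2, passed. The number among all genes fell too, from 691 to between 498 and 679 without 1 combination, and to 198 without the 7-week samples. Whether the 32 genes lost more than other genes was not tested. Of the 10 genes, Rps2 passed in all 22 alternatives tried, Rpsa in 20, Rpl10 and Rpl41 in 19 and Rplp0 in 18, but Rpl10a and Rps3 in 9, Rpl7a in 10, Rps26 in 12 and Rpl6 in 16.

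Rps2, a small-subunit protein at the channel where the messenger enters, had a lowest log2 ratio of 0.12, a median of 0.32 and a highest of 0.57 over the 9 high-dose samples. All 9 lay above air, with the lowest value at 2 weeks and 6 h and the highest at 13 weeks and 2 h. Its mean was 0.34 ± 0.05 (SE, n = 9, limma with Benjamini-Hochberg adjustment, adjusted p = 0.000569). Rpsa, a small-subunit protein also described as a laminin receptor, had 0.03, 0.32 and 0.59 as lowest, median and highest. Its extremes fell in the same samples as those of Rps2, and its mean was 0.31 ± 0.06 (above air in 9 of 9, adjusted p = 0.00255). Rplp0 is the scaffold of the stalk that calls elongation factors to the ribosome. It had -0.09 as its lowest value, at 13 weeks and 6 h, a median of 0.28 and a highest of 0.50 at 13 weeks and 2 h. That makes 8 of 9 samples above air, with a mean of 0.27 ± 0.06 (adjusted p = 0.00972).

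Of the large-subunit genes, 5 of 14 rose, with a median over the 14 of 0.10. Rpl10, which joins the large subunit late in its assembly, ran from -0.01 at 13 weeks and 6 h through a median of 0.28 to 0.45 at 13 weeks and 20 h. Its mean was 0.26 ± 0.05 (above air in 8 of 9, adjusted p = 0.00429). Rpl41, a very short basic peptide, had 0.01, 0.26 and 0.56 as lowest, median and highest, all 9 above air, the last at 7 weeks and 20 h. Its mean was 0.24 ± 0.06 (adjusted p = 0.0118).
Rpl10a, a protein of the mobile stalk at the exit site for transfer RNA, varied most among the genes that rose. Its values were -0.12 at the lowest, 0.25 at the median and 0.53 at the highest, with 3 samples below air, so the rise rests on 6 of 9 samples (mean 0.22 ± 0.07, adjusted p = 0.0468). Rpl7a, a protein of the body of the large subunit, had -0.14, 0.19 and 0.37, with only the 2-week 6-h sample below air (mean 0.20 ± 0.06, adjusted p = 0.0372). Rpl6, another protein of the large subunit, stayed in the narrowest range of the 10 genes, 0.03 to 0.23 with a median of 0.19, and all 9 samples lay above air (mean 0.16 ± 0.04, adjusted p = 0.0212).

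Of the small-subunit genes, 4 of 15 rose, with a median over the 15 of 0.13. Rps26, a protein at the exit of the messenger channel, had 0.01, 0.14 and 0.53 as lowest, median and highest (13 weeks, 20 h). All 9 samples were above air (mean 0.19 ± 0.06, adjusted p = 0.0291). Rps3, a protein at the entry of the messenger channel that is also described in DNA repair, had -0.06, 0.20 and 0.45, below air only at 13 weeks and 6 h (mean 0.19 ± 0.06, adjusted p = 0.0417). Rps6, the ribosomal substrate of S6 kinase, did not pass the test at the high dose, with a mean of 0.13 ± 0.05; its 9 values ran from 0.00 to 0.31 with a median of 0.10, and none lay below air.
Rps2, Rpsa, Rpl41, Rps26 and Rpl6 were above air in 9 of 9 high-dose samples, which is 5 of 32 genes, against 5.11% of all genes with 9 values. Of the stalk genes 1 of 3 rose. The acidic partners of Rplp0 did not pass: Rplp1 ran from -0.10 to 0.44 with a median of 0.10 (mean 0.15 ± 0.06), and Rplp2 from -0.03 to 0.26 with a median of 0.08 (mean 0.09 ± 0.05).

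**Figure D1:**
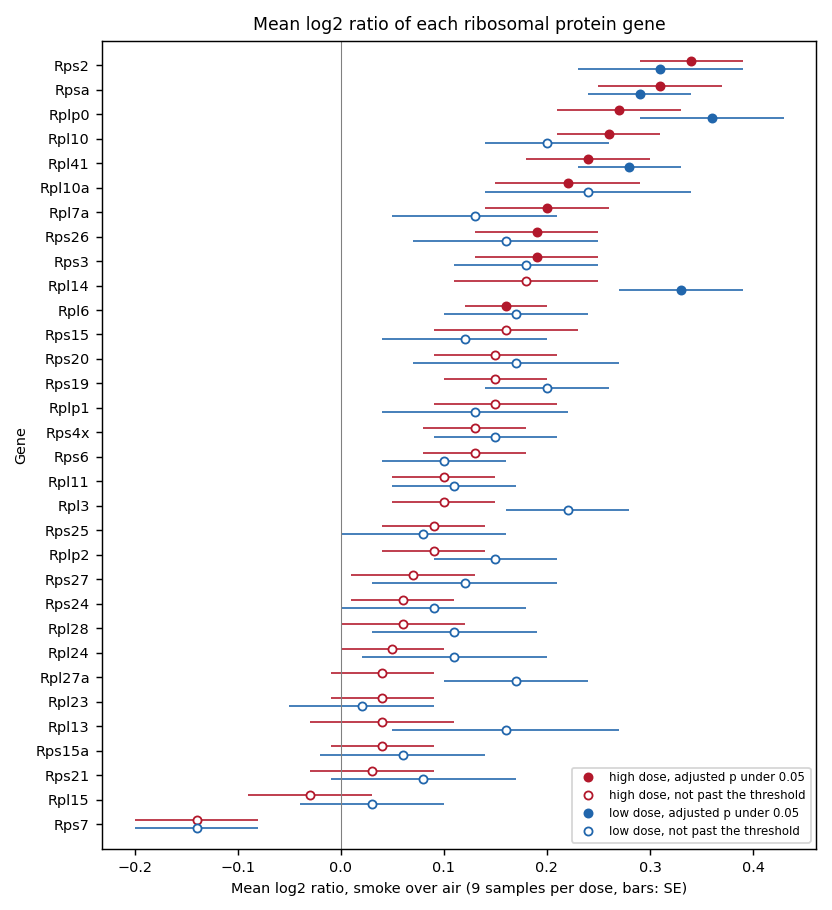
Mean log2 ratio of smoke over air for each of the 32 ribosomal protein genes (x axis; bars are SE, n = 9 samples per dose), high dose in red above low dose in blue, with filled points for an adjusted p under 0.05 in limma. Of the 32 genes 10 are filled at the high dose and 5 at the low dose, all to the right of 0, and Rps7 lies lowest at both doses, at -0.14.

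At the low dose the same question gave 5 genes that rose and 0 that fell (limma, Benjamini-Hochberg). Of all genes tested, 3.51% rose and 1.44% fell, 4.96% in all. At an unadjusted p under 0.05 the genes numbered 15 of 32, against 19.1% of all genes. The mean was above air for 31 of 32 genes, against 49.0% of all genes, and the median log2 ratio was 0.15, against -0.002 over all genes. The genes that rose were Rplp0, Rpl14, Rps2, Rpsa and Rpl41, and 4 of them, all but Rpl14, also rose at the high dose. The doses share their control pools, so this overlap is not independent. How many of all genes rose at both doses was not counted, so the overlap has no share to be read against. The call for Rps2 held in 10 of 22 alternatives and those for the other 4 genes in 18. Among the 22 was a sign-flip permutation test, which passed 0 of all genes at this dose. Its smallest possible p is set by the number of samples. After adjustment a gene can pass only where many genes reach that floor. That 0 therefore decides nothing about single genes. By sign-flip 11 of the 32 and 687 of all genes had an unadjusted p under 0.05. Without the 13-week samples 0 of 32 and 31 of all 4016 genes passed, and 6 and 517 had an unadjusted p under 0.05 in limma. Without the 2-h samples 0 and 48 passed, and 13 and 563 had an unadjusted p under 0.05.

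Rplp0 had -0.04, 0.36 and 0.70 as lowest, median and highest log2 ratio over the 9 low-dose samples, with the lowest at 7 weeks and 2 h and the highest at 13 weeks and 2 h. Its mean was 0.36 ± 0.07 (SE, n = 9, above air in 8 of 9, limma with Benjamini-Hochberg adjustment, adjusted p = 0.0107). Rpl14, a large-subunit protein, had 0.15, 0.26 and 0.58, all 9 above air, with a mean of 0.33 ± 0.06 (adjusted p = 0.00455). At the high dose its mean was 0.18 ± 0.07 and did not pass, with values from -0.20 to 0.43. Rps2 had -0.25, 0.30 and 0.66, and the value at 2 weeks and 6 h was its only one below air (mean 0.31 ± 0.08, adjusted p = 0.0387). Rpsa had 0.15, 0.28 and 0.49 with all 9 above air (mean 0.29 ± 0.05, adjusted p = 0.00371). Rpl41 likewise lay above air in all 9, from 0.15 to 0.52 with a median of 0.26 (mean 0.28 ± 0.05, adjusted p = 0.0062). Those last 2 and Rpl14 make 3 of 32 genes above air in 9 of 9 low-dose samples, against 2.41% of all genes with 9 values.

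By subunit, 2 of 14 large-subunit genes rose at the low dose (median 0.16), 2 of 15 small-subunit genes (median 0.12) and 1 of 3 stalk genes (median 0.15). Rplp1 ran from -0.38 to 0.52 with a median of 0.28, and Rplp2 from -0.03 to 0.34 with a median of 0.18. Their means, 0.13 ± 0.09 and 0.15 ± 0.06, did not pass, nor did that of Rps6, 0.10 ± 0.06, with values from -0.10 to 0.41 and a median of 0.06. Rpl10 averaged 0.20 ± 0.06 (adjusted p = 0.0621) and Rpl3, close to the peptidyl transferase centre, 0.22 ± 0.06 (adjusted p = 0.0621), both just short of the threshold in limma.

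Among the genes that passed at neither dose, Rps19, whose mutation causes a congenital anaemia in humans, averaged 0.15 ± 0.05 at the high dose and 0.20 ± 0.06 at the low dose. Rps15, of the head of the small subunit, averaged 0.16 ± 0.07 and 0.12 ± 0.08, and Rps4x, encoded on the X chromosome, 0.13 ± 0.05 and 0.15 ± 0.06. Rpl11, which carries the smallest ribosomal RNA into the large subunit and binds Mdm2, averaged 0.10 ± 0.05 at the high dose and 0.11 ± 0.06 at the low dose. Means near 0 were those of Rpl15, with -0.03 ± 0.06 at the high dose and 0.03 ± 0.07 at the low dose, and of Rpl23, which also binds Mdm2, with 0.04 ± 0.05 and 0.02 ± 0.07. Over the 9 samples of a dose, Rps15 ran from -0.22 to 0.48 at the high dose and from -0.49 to 0.43 at the low dose. Rpl23 ran from -0.27 to 0.23 and from -0.27 to 0.44. Both genes were above air in some combinations and below it in others. No condition was repeated, so error and change over time cannot be told apart in these ranges.

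Rps7, a small-subunit protein that in human cells also binds MDM2, was the gene with the lowest mean at both doses. It had, over the high-dose samples, -0.355, -0.195 and 0.195 as lowest, median and highest, with 7 of 9 samples below air, and at the low dose -0.33, -0.135 and 0.165, again with 7 of 9 below. Its means were -0.14 ± 0.06 at the high dose (limma, adjusted p = 0.10) and -0.14 ± 0.06 at the low dose (adjusted p = 0.221), so neither passed the test, and without the combination of 13 weeks and 6 h, where both probes lay above air, it passed at the high dose (mean -0.186, limma, adjusted p = 0.0257). It is the only one of the 32 genes with 2 probes. The probe in the first block of the table averaged -0.19 ± 0.26 at the high dose and -0.18 ± 0.10 at the low dose (SD, n = 9), and the probe in the second block -0.10 ± 0.13 and -0.10 ± 0.26. Both probes had means below air at both doses, with 7 and 6 of 9 high-dose samples below air, and 9 and 5 of 9 low-dose samples.

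**Figure D2:**
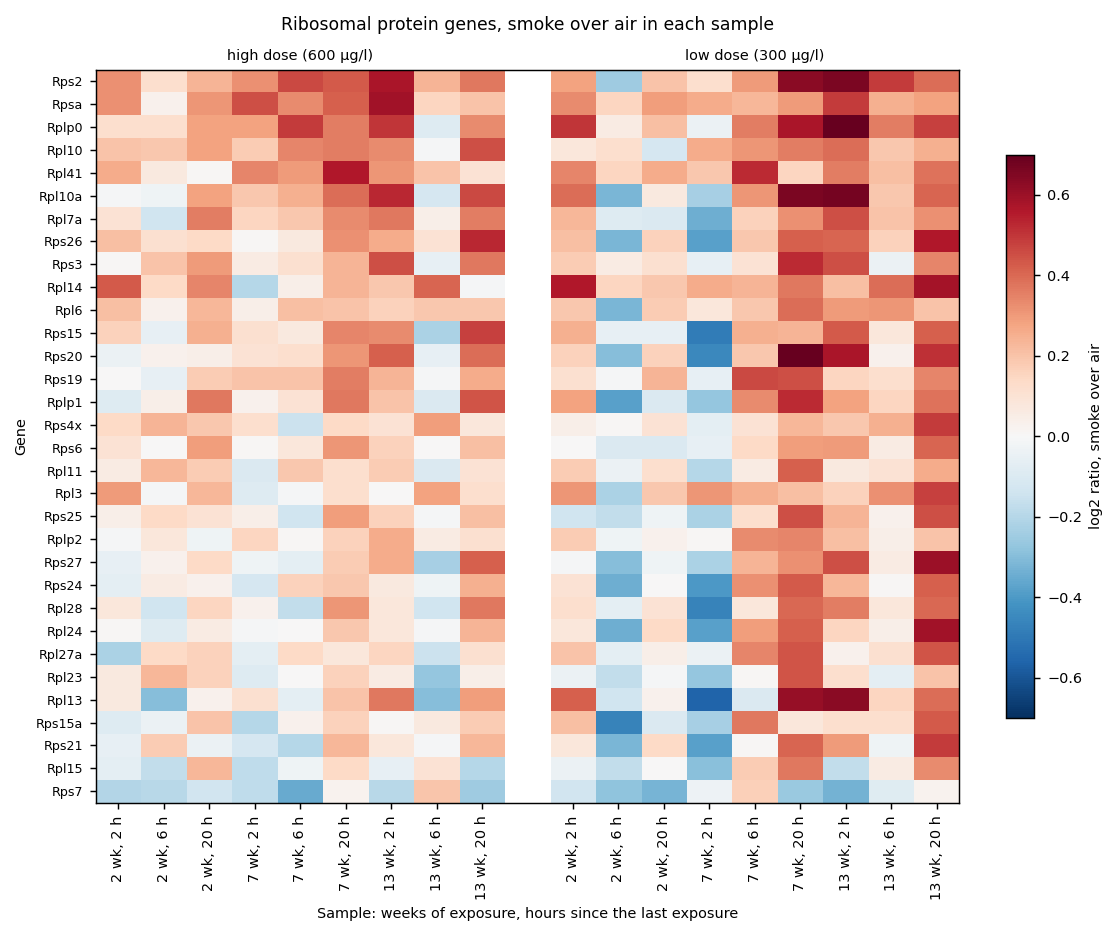
Log2 ratio of smoke over air (colour, red above 0 and blue below) for the 32 genes, ordered by their mean at the high dose, in the 9 high-dose samples on the left and the 9 low-dose samples on the right, by weeks of exposure and hours since the last one. At the low dose the 2-week 6-h and 7-week 2-h columns are mostly blue and the 7-week and 13-week 20-h columns nearly all red, while Rps7 is blue in most columns.

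The next comparison asks whether the shift grew with the dose, on the 9 differences of high minus low within a combination, in which the shared control pool cancels. Of the 32 genes 0 passed (limma, Benjamini-Hochberg), and 0 had an unadjusted p under 0.05. Of all genes tested, 0.174% passed and 9.91% had an unadjusted p under 0.05. The differences ran from -0.15 to 0.07 on the log2 scale with a median of -0.02, and were above 0 for 11 genes and below 0 for 21. Without the 13-week samples the median was 0.0233, so its direction turned. The smallest adjusted p was 0.544, that of Rpl14, with a difference of -0.15 ± 0.08 (95% confidence interval -0.32 to 0.01, below 0 in 7 of 9 pairs). A p that misses the threshold does not show that the doses acted alike: for Rps2 the interval of the difference was -0.12 to 0.18, for Rpsa -0.11 to 0.15, and for Rplp0 -0.26 to 0.08.
The other genes with the smallest p were Rpl3, at -0.12 ± 0.07, Rpl27a, at -0.13 ± 0.08, and Rpl13, at -0.11 ± 0.10, all of the large subunit and all lower at the high dose on average. Rpl3 had -0.09, 0.12 and 0.30 as lowest, median and highest at the high dose and -0.22, 0.25 and 0.48 at the low dose. Rpl27a had -0.22, 0.11 and 0.16 at the high dose and -0.07, 0.11 and 0.44 at the low dose, and Rpl13 -0.30, 0.07 and 0.37 at the high dose and -0.56, 0.15 and 0.63 at the low dose. In all of these the ranges of the doses overlapped.

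The 32 genes also differed from sample to sample as a set. In high-dose lungs, the median over the 32 genes was 0.06, 0.04 and 0.18 at 2, 6 and 20 h after 2 weeks of exposure, 0.04, 0.08 and 0.24 after 7 weeks, and 0.20, -0.01 and 0.24 after 13 weeks. In low-dose lungs the medians were 0.18, -0.16 and 0.08 after 2 weeks, -0.21, 0.24 and 0.40 after 7 weeks, and 0.30, 0.12 and 0.40 after 13 weeks. The lowest median was that of the low dose at 7 weeks and 2 h, and the highest those of the low dose at 20 h after 7 and 13 weeks.
The number of genes above air ran from 13 of 32 (13 weeks, 6 h) to 32 of 32 (7 weeks, 20 h) at the high dose, and from 7 of 32 (2 weeks, 6 h) to 32 of 32 (13 weeks, 20 h) at the low dose, while 46.4% to 51.2% of all genes were above air in a sample. The SD of the 18 sample medians was 0.17, and the SD among the 32 genes within a sample was 0.12 to 0.24. The low-dose samples at 2 weeks and 6 h and at 7 weeks and 2 h, in which most of these genes lay below air, were also those with the fewest genes with a value, 3919 and 3934. The part of this in the shift was not tested.

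The table lists its probes in 2 blocks of rows, and 12 of the genes stand only in the first and 19 only in the second. Each labelled sample was hybridised to 2 arrays, but that a block is an array is not stated. In some samples the blocks differed: the median over the genes was 0.11 in the first block and 0.36 in the second at the high dose, 13 weeks and 20 h, and -0.04 and -0.30 at the low dose, 2 weeks and 6 h. Over all probes the medians of the first and second block were 0.01 and 0.00 at the high dose, 13 weeks and 20 h. At the low dose, 2 weeks and 6 h, they were 0.00 and -0.03. Only Rps7 has a probe in each block. At the high dose, 13 weeks and 20 h, its first-block and second-block probes read -0.43 and -0.07. At the low dose, 2 weeks and 6 h, they read -0.20 and -0.36, and a difference by block was not tested. The other genes stand in the same block in every sample, so gene and block cannot be told apart for them.

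**Figure D3:**
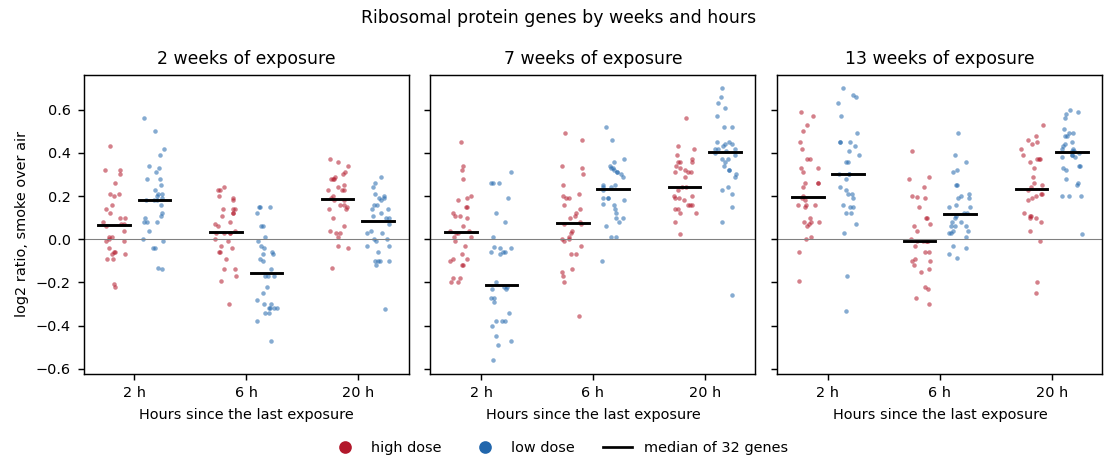
Log2 ratio of smoke over air of each of the 32 genes (points) and their median (black bar) by hours since the last exposure, in a panel for each duration, high dose in red left of low dose in blue. At the high dose the medians at 20 h are 0.18, 0.24 and 0.24, above those at 6 h in every panel, and at the low dose the lowest medians are -0.16 (2 weeks, 6 h) and -0.21 (7 weeks, 2 h).

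Whether the shift depended on the hours since the last exposure was tested on 9 means of the high-dose and low-dose sample of a combination, with weeks as a covariate. No gene of the 32 passed the F test (limma, Benjamini-Hochberg, 0 of 32), and 1.6% of the 3994 genes tested did. At an unadjusted p under 0.05 the count was 3 of 32, against 16.0% of all genes. The direction was shared: the mean at 20 h lay above that at 6 h for 31 of 32 genes (median difference 0.19), against 47.7% of all genes (median -0.01), and above that at 2 h for 29 of 32 (median 0.15), against 48.2%. The mean at 6 h lay above that at 2 h for 8 of 32 (median -0.05), against 48.4%. These genes share arrays and RNA pools, so the count is a description and the genes are not replicates. Each combination had its own control pool, so a ratio that differs by hour may differ through the exposed or the control lungs, and the ratios cannot tell these apart.

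Rpl28, a large-subunit protein, had the smallest p over hours. Its high-dose values were 0.08, -0.14 and 0.15 at 2, 6 and 20 h after 2 weeks, 0.03, -0.17 and 0.31 after 7 weeks, and 0.08, -0.14 and 0.37 after 13 weeks. Its low-dose values were 0.12, -0.07 and 0.10, then -0.47, 0.08 and 0.40, and then 0.36, 0.08 and 0.40. At the high dose the 20-h samples were the highest and the 6-h samples the lowest in each of the 3 durations; at the low dose the order changed with the weeks. The means were 0.03, -0.06 and 0.29, a difference of 0.35 ± 0.12 between 20 and 6 h, and the adjusted p of the F test was 0.268 in limma.
Rps21 of the small subunit averaged -0.02, -0.06 and 0.24 at 2, 6 and 20 h, and Rpl24, which helps to bridge the subunits, -0.01, -0.02 and 0.27. Rpl13 averaged 0.17, -0.13 and 0.26. Their adjusted p-values of the F test in limma were 0.303, 0.312 and 0.339. In single samples Rps21 ran from -0.20 to 0.23 at the high dose (median -0.01) and from -0.38 to 0.49 at the low dose (median 0.08), and Rpl24 from -0.09 to 0.24 (median 0.01) and from -0.38 to 0.59 (median 0.14). Both genes reached their highest value of either dose at 13 weeks and 20 h, which Rps21 at the high dose also had at 7 weeks and 20 h.
Of the genes that rose against air at both doses, Rpl41 averaged 0.30, 0.24 and 0.24 at 2, 6 and 20 h, Rpsa 0.41, 0.19 and 0.30, Rps2 0.38, 0.23 and 0.38, and Rplp0 0.34, 0.22 and 0.37. A difference in time course between genes was not tested.

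Over the weeks of exposure, 0 of 32 genes passed the F test with hours as a covariate (limma, Benjamini-Hochberg), against 0.125% of all genes tested, and 0 had an unadjusted p under 0.05, against 5.78%. The mean at 13 weeks lay above that at 2 weeks for 29 of 32 genes (median difference 0.16), against 52.0% of all genes, and that at 7 weeks above that at 2 weeks for 26 (median 0.10), against 51.6%. Between 13 and 7 weeks the count was 23 of 32 (median 0.08), against 49.7%. The smallest adjusted p was 0.888, for Rps2, whose means were 0.15, 0.38 and 0.45 after 2, 7 and 13 weeks.
Rps27, a small-subunit protein with a zinc finger, averaged -0.04, 0.07 and 0.26, Rps26 0.09, 0.10 and 0.34, and Rps20, of the head of the small subunit, 0.01, 0.16 and 0.31. Rps27 had -0.23, 0.03 and 0.42 as lowest, median and highest at the high dose and -0.30, 0.06 and 0.60 at the low dose. Rps20 had -0.06, 0.10 and 0.42 at the high dose and -0.45, 0.16 and 0.70 at the low dose, and Rps26 had -0.38, 0.19 and 0.56 at the low dose. None of these passed.
Whether the difference between the doses depended on time was tested on the 9 differences of high minus low. Over hours and over weeks 0 of 3994 genes passed (limma, 0.0% in each), and 3.53% and 4.43% had an unadjusted p under 0.05, with 0 of the 32 genes among them in either.

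Other gene groups of translation were described by counts and medians, to be read against the 9.56% of all genes that rose and 7.64% that fell at the high dose, and the 3.51% and 1.44% at the low dose. Of 24 translation factors tested, 5 rose and 1 fell at the high dose (median 0.07), and 2 rose and 0 fell at the low dose (median 0.05). Eif4ebp1, the inhibitor of cap-dependent translation that mTOR inactivates, rose at both doses, with 0.47 ± 0.13 at the high dose (limma, adjusted p = 0.0279) and 0.49 ± 0.12 at the low dose (adjusted p = 0.0272), and its mean was 1.05, 0.22 and 0.17 at 2, 6 and 20 h. Eef1a1, the factor that brings transfer RNA to the ribosome, also rose at both, with 0.21 ± 0.07 and 0.42 ± 0.08. Eif5a, which helps the ribosome past difficult peptide bonds, rose at the high dose (0.23 ± 0.05), as did Eef1g (0.23 ± 0.07) and Eif4h (0.16 ± 0.04), whereas Eif2ak4, the kinase that senses a lack of amino acids, fell (-0.26 ± 0.07).

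Of 13 tested genes of other TOP messengers, 2 rose and 0 fell at the high dose (Eef1a1 and Eef1g, median over the list 0.03), and 1 rose and 0 fell at the low dose (Eef1a1, median 0.08). The mean at 20 h lay above that at 6 h for 11 of 13, with a median difference of 0.10, and 0 of them passed the F test over hours in limma. Fau, whose product is cleaved into a small-subunit protein, averaged 0.03 ± 0.06 at the high dose and 0.08 ± 0.09 at the low dose, and -0.05, -0.05 and 0.27 at 2, 6 and 20 h. Tpt1, a growth-related protein with a TOP messenger, averaged 0.01 ± 0.05 and -0.01 ± 0.07.
Of 8 genes of ribosome assembly and the nucleolus, 1 rose at the high dose, Mdm2 (0.34 ± 0.07, adjusted p = 0.00378 in limma), which is the p53 ligase that ribosomal proteins bind and not an assembly factor; the list's median was 0.12, and at the low dose 0 rose or fell (median -0.04). Of 8 mitochondrial ribosomal proteins, 0 rose and 1 fell at the high dose, Mrpl14 (-0.22 ± 0.07), with a median of -0.01, and 0 rose or fell at the low dose (median 0.03). Of 14 genes of S6 kinase and mTOR signalling only Eif4ebp1 rose at either dose and none fell, with medians of -0.08 at the high dose and -0.01 at the low dose. Of 9 reference genes, Gapdh (0.31 ± 0.06) and Ppia (0.20 ± 0.05) rose at the high dose and 0 at the low dose, and Actb averaged 0.08 ± 0.06 at both doses. The median of the reference genes was 0.07 at the high dose and 0.02 at the low dose.

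**Figure D4:**
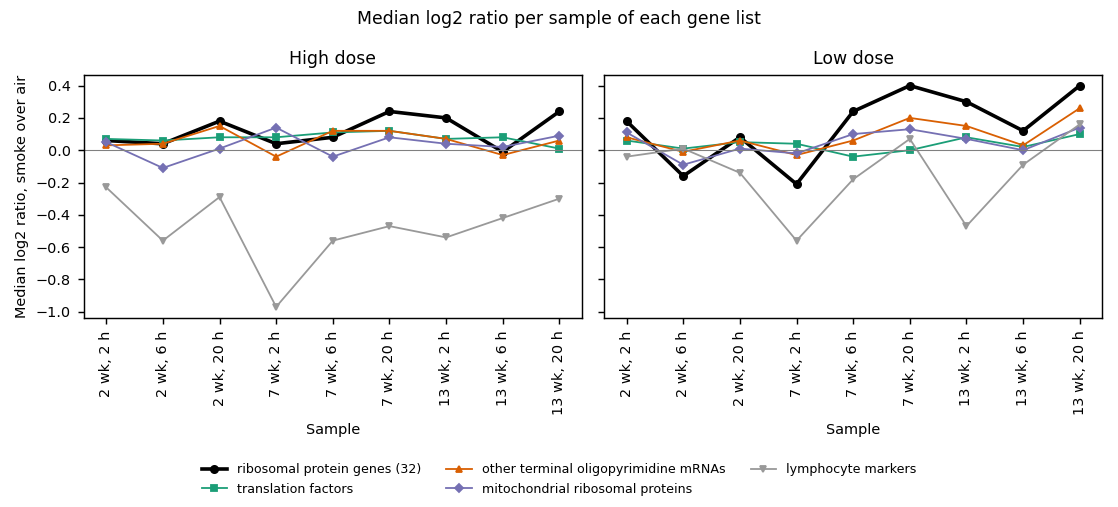
Median log2 ratio of smoke over air in each sample for the 32 ribosomal protein genes (black) and for 4 other gene lists, high dose on the left and low dose on the right, by weeks and hours. The ribosomal protein genes span -0.21 to 0.40 over the samples, translation factors only -0.04 to 0.12, and lymphocyte markers, the lowest line at the high dose, -0.97 to 0.16.

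Markers of cell types moved with smoke as well, counted here against the same shares of all genes. Of 9 lymphocyte markers 0 rose and 9 fell at the high dose (median -0.49), and 0 rose and 1 fell at the low dose, Cd4 (-0.28 ± 0.06; median of the list -0.12). Their sample medians ran from -0.97 to -0.23 at the high dose and from -0.56 to 0.16 at the low dose. Over the 9 low-dose samples the median of the lymphocyte markers was -0.04, 0.01 and -0.14 at 2, 6 and 20 h after 2 weeks, -0.56, -0.18 and 0.07 after 7 weeks, and -0.47, -0.09 and 0.16 after 13 weeks. Set beside the ribosomal protein medians of those samples, both lists were lowest at 7 weeks and 2 h (-0.56 and -0.21), but at 13 weeks and 2 h the lymphocyte median was -0.47 and the ribosomal protein median 0.30, and at 2 weeks and 6 h they were 0.01 and -0.16. The part of lymphocytes in the ribosomal protein values was not tested. Of 7 macrophage markers, 5 rose and 2 fell at the high dose (median 0.81, sample medians 0.31 to 1.06), and 4 rose and 1 fell at the low dose (median 0.29, sample medians 0.16 to 0.58). Cd68, a lysosomal protein of macrophages, averaged 1.12 ± 0.10 at the high dose and 0.76 ± 0.06 at the low dose. Adgre1, a surface receptor of macrophages, fell at both, with -0.72 ± 0.06 at the high dose and -0.45 ± 0.07 at the low dose, and Csf1r, the receptor of their growth factor, fell at the high dose (-0.19 ± 0.06) and averaged -0.14 ± 0.06 at the low dose without passing.
Of 6 neutrophil markers, 2 rose and 2 fell at the high dose and 1 rose at the low dose, and of 6 alveolar epithelial markers 3 rose and 1 fell at the high dose and 3 rose at the low dose. Of 5 endothelial and smooth muscle markers 3 fell at the high dose and 0 passed at the low dose, and none of 6 striated muscle or 3 blood markers passed at either dose. The only airway marker tested rose at the high dose. The part of these cells in the ribosomal protein values was not tested.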

How the data were processed

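The authors deposited 1 table of 11994 rows of log2 ratios (Cy5 over Cy3) for 18 samples, and the scale was checked on the values: the 257 values under -1 are in 100% of cases what log2 makes of a ratio with 2 decimals. Per the labels, each labelled sample was divided over 2 PIQOR arrays. Neither the labels nor the table name the scanner, the background correction or the normalization, signal over background is unknown, and that a ratio is smoke over air comes from the channel labels.

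Repeated rows were merged (90792 values stood in both rows, 1 unequal), leaving 5997 probes, 4829 with a symbol. Symbols came from the platform's annotation, and all 32 genes matched the rat gene table by gene ID. Probes of 1 gene were averaged. Genes with both doses in at least 6 of 9 combinations were tested.

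Tests used limma 3.58.1 in R 4.3.3 (lmFit, eBayes, two-sided, Benjamini-Hochberg over all genes tested, threshold 0.05): the mean of 9 ratios against 0, 9 differences between doses, and F tests over hours or weeks. The high-dose and low-dose samples of a combination are paired through their control pool, which the source names give; the correlation of the paired samples was 0.255 (statmod 1.5.0). The procedure was tested on simulated data. Python 3.11.15 drew the figures (matplotlib 3.10.9). Alternatives covered filters, normalization, left-out samples and other tests.

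The genes and lists were chosen with earlier results of these data known. All 32 genes could be named. Values by sample were given for Rplp0, Rplp1, Rplp2, Rpsa and Rps6, for up to 10 genes past the threshold at the high dose and 4 at the low dose by size of the mean, and for the 4 with the smallest p between doses, over hours and over weeks. Of each pathway list up to 4 genes past the threshold were named, by size of the mean at the high dose. Fau, Tpt1, Eef1a1, Gapdh and Actb were set in advance to be named as well. Eif4h was named beyond this rule. Sample ranges of Rps15 and Rpl23 and low-dose sample values of Rpl41 were also given beyond it. Rps7 and Rpl10 at the low dose, Cd68, Adgre1, Csf1r and Cd4 were chosen after their values were seen.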

Additional observations from a re-analysis of the deposited data

Results flagged for a closer look

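In each of the 64 sets of 9 values (32 genes at 2 doses) the highest and the lowest sample were set against the rest, and in 3 sets 1 sample stood apart by Dixon's 95% criterion. Chance alone gives about 1 in 20 such sets. Rpl3 at the low dose had -0.22 at 2 weeks and 6 h, while its other 8 samples lay between 0.16 and 0.48 (gap 0.54 of the range). Rpl6 at the low dose had -0.32 in that same sample, with the others between 0.08 and 0.39 (0.56 of the range). Rps4x at the high dose had -0.15 at 7 weeks and 6 h, with the others between 0.08 and 0.29 (0.52 of the range). The low-dose sample at 2 weeks and 6 h also had 25 of the 32 genes below air and the fewest measured genes, 3919.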

How the results depend on the processing

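The medians over the 32 genes against air kept their sign in every alternative run. Leaving out 1 combination at a time gave 0.114 to 0.141 at the high dose and 0.106 to 0.186 at the low dose, with 6 to 12 and 4 to 7 genes past the threshold in limma (of all genes 498 to 679 and 123 to 193). For high minus low it gave medians of -0.0556 to -0.00375, with 0 of the 32 genes and 4 to 20 of all. Over hours it gave 0 to 1 of the 32 (Rpl13 without the 7-week 2-h samples) and 29 to 71 of all, over weeks 0 and 2 to 8, and for the dose difference over hours 0 and 0 and over weeks 0 and 0 to 1. Against air at the high dose, of the 32 and of all genes, 5 and 322 passed an exact sign-flip permutation test, and by limma 1 and 198 without 7 weeks, 4 and 267 without 13 weeks, 2 and 278 without 2 h, and 3 and 398 without 20 h. At the low dose these were 0 and 0 by sign-flip (11 and 687 unadjusted), 1 and 50 without 7 weeks, 0 and 31 without 13 weeks, 0 and 48 without 2 h and 3 and 122 without 20 h; of all genes 128 passed without 2 weeks and 104 without 6 h, and of the 32, 8 with all 18 samples in 1 fit. The sign-flip test used all samples of a dose, but its smallest possible p is set by their number. After adjustment a gene can pass only where many genes reach that floor. The 0 by sign-flip at the low dose therefore decides nothing about single genes. Fewer samples entered most of the other settings, and other causes were not tested.

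Between the doses 0 of the 32 genes passed in any alternative. Of all genes 24 passed among those with 18 values, 4 without 13 weeks, 1 without 20 h, and 0 with quantile normalization, by sign-flip, without 7 weeks and without 6 h. The 0 by sign-flip is subject to the same floor as at the low dose and decides nothing about single genes. By that test 368 of all genes and 0 of the 32 had an unadjusted p under 0.05. Without the pairing of the doses by control pool (no replicate block) 2 passed, against 7 with it. The median difference turned to 0.0233 without the 13-week samples, against -0.02. Over hours 110 of all genes passed with every probe on its own, 33 in the high-dose and 19 in the low-dose samples alone; over weeks 3 passed with quantile normalization, 2 in the high-dose and 1 in the low-dose samples alone.

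Against air, the sign of a mean turned only for genes that did not pass at that dose. At the high dose it did without 20 h for Rpl13 (-0.02), Rpl24 (-0.00333), Rpl27a (-0.00167), Rpl28 (-0.0433), Rps15a (-0.0367), Rps21 (-0.0217) and Rps27 (-0.0167), without 2 h for Rpl13 (-0.025) and Rpl15 (0.0117), without 2 weeks for Rpl23 (-0.0167) and without 13 weeks for Rps21 (-0.00167). At the low dose it did without 20 h for Rpl15 (-0.0717), Rpl23 (-0.07), Rpl24 (-0.0267), Rps21 (-0.0567), Rps24 (-0.0133) and Rps25 (-0.0233), without 13 weeks for Rpl23 (-0.00667), Rps15a (-0.0233) and Rps21 (-0.01), and without 1 combination for Rpl15 (range -0.0125 to 0.07, with -0.0075 in another) and Rpl23 (-0.0288 to 0.06). The difference of 20 and 2 h in Rpl13, 0.085, ran from -0.161 to 0.215 without 1 combination (-0.161 without the 7-week samples at 2 h, where the F test passed with an adjusted p of 0.0447 in limma, and -0.0775 without those at 20 h), and -0.01 in high-dose samples alone. Signal over background is unknown, so its limit on these ratios cannot be given.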
